A study of Mus musculus with 4 samples.

Results

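The interferon regulatory factors (IRFs) are transcription factors that share an amino-terminal DNA-binding domain which reads GAAA repeats. Irf3, Irf5 and Irf7 encode members that sit latent in the cytoplasm until pattern sensors trigger their phosphorylation, after which they switch on interferon genes. Irf9 encodes the DNA-binding subunit of ISGF3, the complex that carries the type I interferon signal to its target genes, while Irf1 encodes an interferon-induced activator and Irf2 its competitor at the same sites. Irf8 and Irf4 encode lineage factors of blood cells, which bind DNA weakly alone and pair with ETS or AP-1 proteins; Irf8 is required for monocyte and dendritic cell development, and Irf4 acts in B cells, plasma cells and activated T cells.

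The family was taken as the rows of the deposited tables named Irf1 to Irf5 and Irf7 to Irf9, which are 8 of 20207 genes. They were read in LSK cells sorted from E14.5 mouse fetal liver. LSK cells lack lineage markers and carry Sca-1 and Kit, and include stem cells and multipotent progenitors of the blood. Brpf1-null embryos were compared with wild-type embryos. Brpf1 encodes a chromatin reader that assembles MYST-family histone acetyltransferase complexes. Each genotype has 2 samples in the labels, with cells of 4 embryos combined in every sample; the labels do not give the deleted allele, a Cre driver or the strain. The tables of both pairs held the same values for all genes, so they were treated as 1 library per genotype (n = 1), of about 22217873 reads for Brpf1-null and 23641420 for wild-type. Whether the values come from pair 1, from pair 2 or from both merged is not known. No difference has a replicate check and no p-values were computed. The range in brackets after a ratio is its exact 95% Clopper-Pearson counting interval, which leaves out the spread between pools and treats reads as independent molecules.

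Some values of the whole series bear on what follows. Brpf1 was at 2.15 RPKM in the Brpf1-null library and 2.59 RPKM in the wild-type library, 1.20-fold lower (1.01 to 1.43); this is a whole-gene value, in which loss of single exons would not show. Kit, Ly6a, Cd34 and Flt3, which mark or refine the LSK gate, were measured in both libraries. Cd34 was called higher (ratio 1.54, 1.49 to 1.58), Flt3 had a ratio of 1.45 (1.37 to 1.54), Ly6a 0.900 (0.742 to 1.09) and Kit 0.832 (0.789 to 0.877). The 10 hepatocyte markers, which lie outside the gate, summed to 539 RPKM in the Brpf1-null library and 2054 RPKM in the wild-type library.

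Irf8, Irf5 and Irf7 were the members that were higher in the Brpf1-null library. Calls were made at 1.5-fold on the log2(RPKM + 1) scale among genes whose RPKM averaged 1 or more over both libraries. Of the 8 members, 7 passed that filter, 3 were called higher, 0 lower and 4 lay within 1.5-fold. Of all 9380 genes that passed, 14.1% were called higher and 9.42% lower, which are 1323 and 884 genes. With each library centred on its median, 961 genes were higher and 1204 lower, and the members' counts were again 3 and 0. The median log2 change of the 7 members was 0.17, beside 0.04 for all genes. RPKM scales reads by gene length and library size, and on that scale levels were set side by side between genes. It does not correct for GC content or for errors in transcript length, which the counting intervals also leave out.

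**Figure D1:**
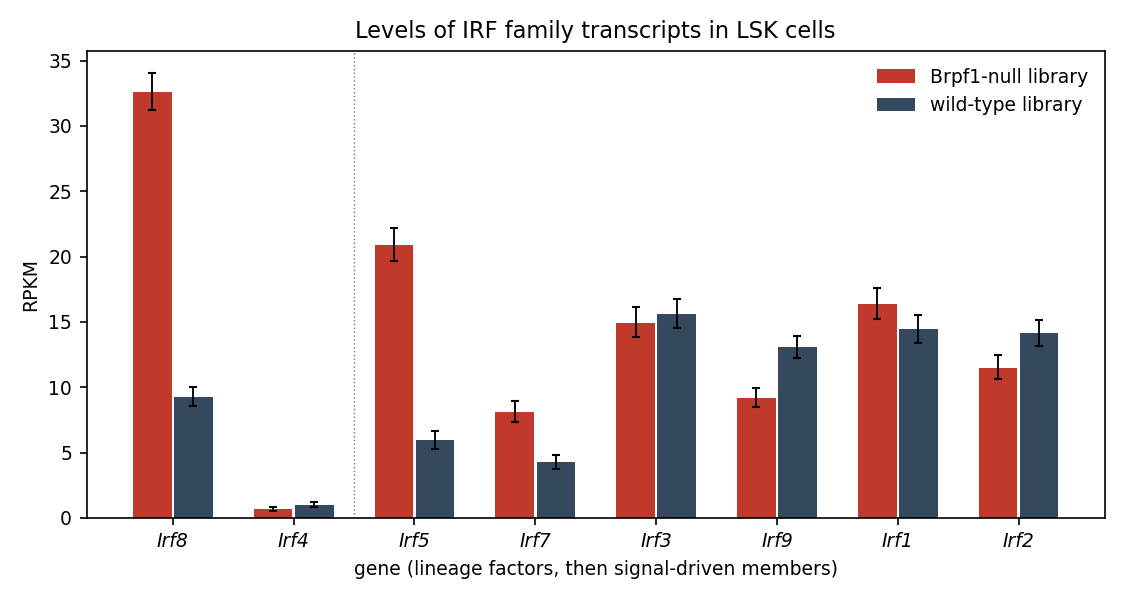
Level (RPKM) of each IRF family transcript in the Brpf1-null library and the wild-type library (1 library each); bars are deposited values and whiskers are exact 95% Poisson counting intervals. Irf8 and Irf5 were at 32.6 and 20.9 RPKM in the Brpf1-null library, against 9.24 and 5.93 RPKM in the wild-type library.

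Irf8, the monocyte and dendritic cell factor, was at 32.6 RPKM in the Brpf1-null library and 9.24 RPKM in the wild-type library, from about 2063 and 622 reads. The ratio was 3.53 (3.22 to 3.87), a log2 change of 1.71, and 0.341% of all genes kept had a larger one. Irf4, the other lineage factor, was at 0.682 RPKM in the Brpf1-null library and 0.975 RPKM in the wild-type library, from about 72 and 110 reads, and did not pass the filter on low values. It was 1.43-fold lower (1.06 to 1.96), a log2 change of -0.23. Only Irf8 of these lineage factors was called, and it exceeded Irf4 by 47.8 times in the Brpf1-null library and by 9.48 times in the wild-type library.

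Among the latent, sensor-driven members, Irf5 and Irf7 were higher and Irf3 was not. Irf5, which acts downstream of Toll-like receptors in macrophages and dendritic cells, was at 20.9 RPKM in the Brpf1-null library and 5.93 RPKM in the wild-type library. Its ratio of 3.52 (3.11 to 4.02) equalled that of Irf8 within counting error, and Irf8 stood at 1.56 times the level of Irf5 in both libraries. In the GENCODE M21 annotation, 411 exon bases of Irf5, all near its 3′ end, overlap exons of Tnpo3 (a nuclear import receptor) on the opposite strand. Tnpo3 was at 15.1 RPKM in the Brpf1-null library and 6.61 RPKM in the wild-type library, a ratio of 2.28 (2.08 to 2.51). The labels do not say whether counting used strand, so reads from that stretch cannot be told apart.

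Irf7, the main amplifier of type I interferon production, was at 8.14 RPKM in the Brpf1-null library and 4.25 RPKM in the wild-type library, from about 404 and 225 reads. The ratio was 1.91 (1.62 to 2.26), with a log2 change of 0.80 that 7.43% of the genes kept exceeded. With a pseudocount of 5 the log2 change was 0.51 and the call was lost. Irf3, which many cell types hold ready for immediate use, was at 14.9 RPKM in the Brpf1-null library and 15.6 RPKM in the wild-type library. Its ratio of 0.957 (0.862 to 1.06) was not distinguishable from 1 at this depth. Irf3 shares 88 exon bases with Bcl2l12 and Irf7 shares 45 with Phrf1, both on the opposite strand.

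Irf9, Irf1 and Irf2 lay within 1.5-fold. Irf9, the ISGF3 subunit, was at 9.20 RPKM in the Brpf1-null library and 13.1 RPKM in the wild-type library, 1.42-fold lower (1.28 to 1.57). Irf1, the interferon-induced activator, was at 16.4 RPKM in the Brpf1-null library and 14.4 RPKM in the wild-type library, a ratio of 1.13 (1.02 to 1.26). Irf2, its competitor, was at 11.5 RPKM in the Brpf1-null library and 14.1 RPKM in the wild-type library, 1.23-fold lower (1.11 to 1.36). Irf9 shares 123 exon bases with Rnf31 on the same strand, and Rnf31 was at 3.66 RPKM in the Brpf1-null library and 2.11 RPKM in the wild-type library; Irf1 shares 135 with Gm17334 on the opposite strand. The level of Irf1 over that of Irf2 was 1.42 in the Brpf1-null library and 1.02 in the wild-type library.

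**Figure D2:**
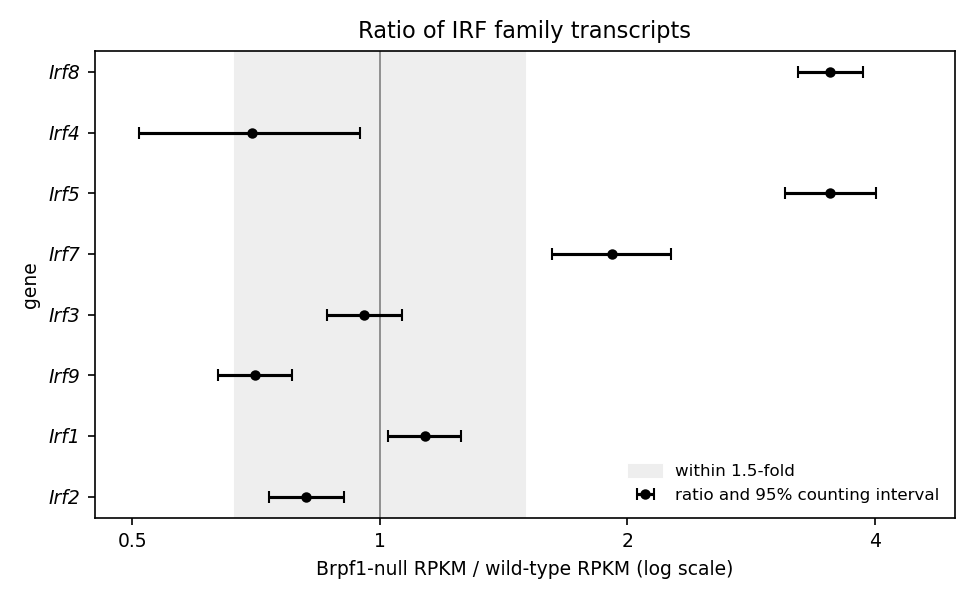
Ratio of Brpf1-null to wild-type RPKM for each member on a log axis, with the exact 95% counting interval as whiskers and the band within 1.5-fold shaded. Irf8 (3.53), Irf5 (3.52) and Irf7 (1.91) lie to the right of the band, and the intervals of Irf8 and Irf5 overlap.

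The split into lineage factors and signal-driven members did not separate the changes. The 2 lineage factors had log2 changes of 1.71 (Irf8) and -0.23 (Irf4), and the 6 signal-driven members ran between -0.46 (Irf9) and 1.66 (Irf5). Of those 6, 2 were called higher and 4 lay within 1.5-fold. The mean of the lineage factors exceeded that of the signal-driven members by 0.44 on the log2 scale, a difference carried by Irf8.

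The order of the members by level differed between the libraries. In the Brpf1-null library, Irf8 led, followed by Irf5, Irf1, Irf3, Irf2, Irf9, Irf7 and Irf4, and the counting intervals of neighbours overlapped for Irf1 with Irf3 and for Irf9 with Irf7. In the wild-type library, Irf3, Irf1, Irf2 and Irf9 stood at 13.1 to 15.6 RPKM, with overlapping intervals between neighbours, above Irf8, Irf5, Irf7 and Irf4. The 8 members summed to 114 RPKM in the Brpf1-null library and 77.6 RPKM in the wild-type library. Irf8 and Irf5 made up 46.8% of that sum in the Brpf1-null library and 19.6% in the wild-type library. The other 6 members together came to 60.8 RPKM in the Brpf1-null library and 62.4 RPKM in the wild-type library.

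**Figure D3:**
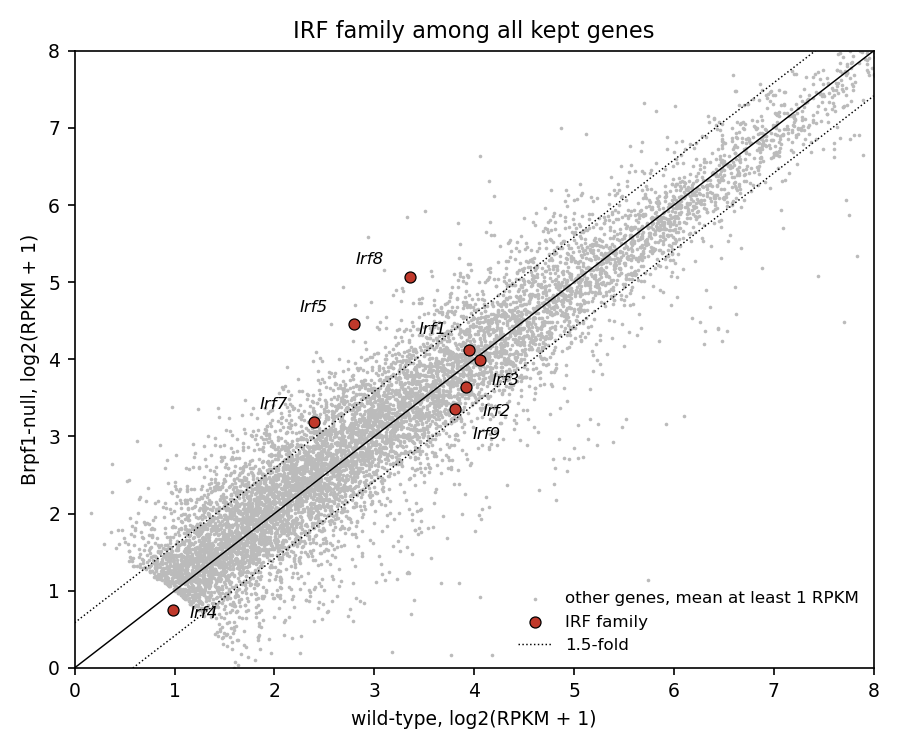
Level in the Brpf1-null library (vertical axis) against the wild-type library (horizontal axis), both as log2(RPKM + 1), for genes averaging 1 RPKM or more (grey) and the 8 IRF family members (red); the line marks equal levels, dotted lines 1.5-fold, and 260 genes above 8 on either axis are not shown. Irf8 and Irf5 lie well above the upper dotted line, Irf7 just above it, and Irf4 below the filter.

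RefSeq promoter sequences (GRCm38.p6, a later assembly than the mm9 used for alignment) were read for the members whose levels differed most and for those whose promoters matched interferon motifs. The windows are the 250 bases before an annotated start, and capitals mark matches, searched on both strands. The letters searched were GAAA, any 2 bases and GAAA (the core of the ISRE that IRFs and ISGF3 read), GGAA, any 2 bases and GAAA (the composite element of ETS factors with IRF4 or IRF8) and TTCNNNGAA (the GAS core read by STAT dimers). The windows are chr8:120736108-120736357 (plus strand) for Irf8, chr11:53769764-53770013 (plus) for Irf1, chr8:46739495-46739744 (plus) for Irf2, chr6:29526375-29526624 (plus) for Irf5 and chr7:141266425-141266674 (minus) for Irf7.
Irf8: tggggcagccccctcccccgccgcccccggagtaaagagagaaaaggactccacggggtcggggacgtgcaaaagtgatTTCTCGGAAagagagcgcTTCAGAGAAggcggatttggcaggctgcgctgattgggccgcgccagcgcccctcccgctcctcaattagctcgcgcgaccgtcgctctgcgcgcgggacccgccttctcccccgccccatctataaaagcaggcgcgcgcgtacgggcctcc
Irf1: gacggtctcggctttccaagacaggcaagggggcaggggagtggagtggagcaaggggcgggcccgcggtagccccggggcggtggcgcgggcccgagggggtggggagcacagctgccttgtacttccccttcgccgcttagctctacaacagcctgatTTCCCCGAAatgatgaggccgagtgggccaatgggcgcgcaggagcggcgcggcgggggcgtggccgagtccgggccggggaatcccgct
Irf2: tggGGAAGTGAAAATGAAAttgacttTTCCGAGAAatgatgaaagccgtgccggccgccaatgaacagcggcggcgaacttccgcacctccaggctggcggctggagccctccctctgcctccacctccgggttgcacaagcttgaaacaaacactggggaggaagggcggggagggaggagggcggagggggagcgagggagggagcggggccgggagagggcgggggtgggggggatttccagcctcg
Irf5: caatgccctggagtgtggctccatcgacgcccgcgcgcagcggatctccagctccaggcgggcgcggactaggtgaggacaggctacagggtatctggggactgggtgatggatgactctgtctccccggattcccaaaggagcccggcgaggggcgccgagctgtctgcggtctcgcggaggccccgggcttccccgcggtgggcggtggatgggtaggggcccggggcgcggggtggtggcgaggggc
Irf7: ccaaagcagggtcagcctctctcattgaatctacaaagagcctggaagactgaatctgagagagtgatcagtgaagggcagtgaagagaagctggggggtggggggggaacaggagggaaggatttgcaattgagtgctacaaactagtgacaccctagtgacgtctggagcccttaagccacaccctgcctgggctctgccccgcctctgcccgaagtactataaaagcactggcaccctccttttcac

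The Irf8 window held GAS cores TTCTCGGAA and TTCAGAGAA, which begin 171 and 153 bases before the start, and the Irf1 window held TTCCCCGAA, which begins 90 bases before it. The Irf2 window held the ISRE core GAAAATGAAA, overlapping the ETS-IRF match GGAAGTGAAA, and the GAS core TTCCGAGAA. The Irf5 window lies inside the annotated gene, which starts further upstream, and the Irf7 window overlaps the annotated start of its gene. The windows of Irf5 and Irf7 held none of these letters, nor did those of Irf3, Irf4 and Irf9 or the second annotated starts of Irf1, Irf8 and Irf9. Of the 11 member windows, 3 held a GAS core, 1 an ISRE core and 1 an ETS-IRF match. Over all 32851 promoter windows of this length, 7.02% held a GAS core, 2.98% an ISRE core and 2.30% an ETS-IRF match. A match describes the sequence and does not show binding, and members with a GAS core included both Irf8, which was called higher, and Irf1 and Irf2, which were not.

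The genes whose pair of levels lay nearest to a member, by Euclidean distance of log2(RPKM + 1) over the 2 libraries, were named for the 3 members called higher. For Irf8 they were Trappc3, Cd82 and Csf1r, at distances of 0.16 to 0.22. Csf1r, which encodes the CSF1 receptor of monocytes and macrophages, was at 28.8 RPKM in the Brpf1-null library and 8.31 RPKM in the wild-type library. For Irf5 they were Efhd2, 1700026L06Rik and Il11ra1 (0.17 to 0.22), and for Irf7 1110008F13Rik, Akna and Rps6kb2 (0.03 to 0.04). With 2 libraries, nearness says only that the levels were alike.

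Upstream of the family, interferon transcripts were almost all listed at 0, and some receptor and sensor genes were higher. Beside the counts of this and the following lists, 14.1% of all 9380 genes kept were called higher and 9.42% lower. Of these 9380 genes, 554 were higher and 393 lower with a pseudocount of 5, and 388 and 325 with a 2-fold rule. Of 19 interferon ligand genes, 18 were listed at 0 in both libraries, and the other, Ifnk, was at 0 RPKM in the Brpf1-null library and 0.103 RPKM in the wild-type library. Of 11 kept receptor and JAK-STAT genes, 4 were higher and 0 lower, with a median log2 change of 0.44. With a pseudocount of 5, 1 was higher and the median was 0.21, and with a 2-fold rule 2 were higher. The 4 were Ifnar2, a type I interferon receptor chain (ratio 2.86, 2.54 to 3.22), the kinase gene Tyk2 (2.61, 2.20 to 3.11), Ifngr2 (1.83, 1.65 to 2.04) and Stat3 (1.76, 1.63 to 1.89).

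Of 13 kept pattern sensors and adaptors, 4 were higher and 1 lower; 2 were higher and 0 lower with a pseudocount of 5 or a filter at 5 RPKM, and 2 were lower after centring. The DNA sensor gene E330016A19Rik (Mb21d1, cGAS) had a ratio of 2.94 (2.60 to 3.33) and Unc93b1, the chaperone of endosomal Toll-like receptors that signal to Irf5 and Irf7, 2.25 (2.04 to 2.48). Tlr2 had a ratio of 2.72 (2.18 to 3.41) and the nucleic acid sensor gene Zbp1 2.53 (1.86 to 3.47). The gene called lower was Ddx58 (0.512, 0.396 to 0.655). The endosomal receptor genes Tlr3, Tlr7, Tlr8 and Tlr9 did not pass the filter. They were at 0.187, 0.516, 0.0285 and 0.117 RPKM in the Brpf1-null library. In the wild-type library they were at 0.117, 1.25, 0.0268 and 0 RPKM. Ddx58 and these receptor genes were named after their values were seen. Of 14 kinase and ubiquitin ligase genes, 2 were higher (14.3%, beside 14.1% of all genes kept) and 0 lower. The 2 were Tbkbp1, an adaptor of the IRF3 kinase TBK1 (3.38, 2.50 to 4.62), and Irak4 (1.83, 1.55 to 2.16). Ikbke (1.64, 1.39 to 1.95) and Irak2 (0.566, 0.440 to 0.725) were not called. Neither was Tbk1 (0.753, 0.680 to 0.833), which was named after its values were seen. With a pseudocount of 5 or a filter at 5 RPKM 0 genes of this list were higher, and after centring 2 were lower. Of 10 kept inhibitors and corepressors, 3 were higher and 1 lower, and with a 2-fold rule 1 was higher. Irf2bp1, a corepressor that binds IRF2, had a ratio of 1.92 (1.54 to 2.40), Fkbp4, whose product binds IRF4, 2.21 (2.11 to 2.31), and Ptpn6, a phosphatase of receptor signalling, 1.75 (1.68 to 1.83). Sharpin, of the linear ubiquitin ligase complex, was at 6.18 RPKM in the Brpf1-null library and 15.5 RPKM in the wild-type library.

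Partners of IRF4 and IRF8 went both ways, with 3 of 12 kept genes higher and 2 lower, but 2 higher and 0 lower with a pseudocount of 5, and 0 in either direction with a filter at 5 RPKM. Cebpa, a granulocyte and monocyte specification factor, had a ratio of 3.64 (2.94 to 4.57), Batf3, the AP-1 partner in dendritic cells, 4.07 (2.44 to 7.17) and Cebpb 2.71 (1.77 to 4.25). Cebpa and Cebpb encode C/EBP factors, not ETS or AP-1 proteins, so Batf3 was the only ETS or AP-1 gene of the list called higher. The ETS gene Spic was at 0.676 RPKM in the Brpf1-null library and 2.64 RPKM in the wild-type library. Sfpi1, which encodes the ETS partner PU.1, was named after its values were seen, at 2.46 RPKM in the Brpf1-null library and 4.63 RPKM in the wild-type library. Irf8 and the transcript of its main ETS partner thus differed in opposite directions.

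A list of monocyte and dendritic genes tied to Irf8, called Irf8-dependent here, and a list of interferon targets were counted separately. Whether the genes of the first list depend on Irf8 in LSK cells was not tested. The Irf8-dependent list held 25 genes. The 7 that did not pass the filter were Cx3cr1, Naaa, Zbtb46, Clec9a, Xcr1, Cadm1 and Il12b. Of 18 kept Irf8-dependent genes, 10 were higher and 0 lower, with a median log2 change of 0.78. The count higher was 5 with a filter at 5 RPKM, 6 with a 2-fold rule and 7 with a pseudocount of 5, where the median was 0.44. Csf1r had a ratio of 3.47 (3.19 to 3.76), Cybb, the phagocyte oxidase subunit, 3.83 (3.29 to 4.47), and Ly86, a Toll-like receptor accessory gene, 2.43 (2.22 to 2.66). Batf3 is in this list too, and Csf1r, Ly86, Ctss, Fcgr1 and Klf4 are also monocyte markers. Of 27 kept ISGF3 targets, 5 were higher (18.5%, beside 14.1% of all genes kept), 1 lower and 21 within 1.5-fold, with a median log2 change of 0.15. With a pseudocount of 5 or a filter at 5 RPKM 1 was higher, with a 2-fold rule 2 and without a pseudocount 8, and after centring 3 were lower. Bst2 (tetherin) was at 47.1 RPKM in the Brpf1-null library and 6.68 RPKM in the wild-type library, a ratio of 7.05 (5.84 to 8.59), and Isg20, an exonuclease gene, was at 9.13 RPKM in the Brpf1-null library and 21.5 RPKM in the wild-type library. Eif2ak2, which encodes the RNA-activated kinase PKR, had a ratio of 2.82 (2.33 to 3.46) and Mx1 3.61 (2.50 to 5.29).

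Of 20 kept targets of Irf1 and gamma-interferon, 2 were higher (10%, beside 14.1% of all genes kept), 1 lower and 17 within 1.5-fold. The median was 0.13. With a pseudocount of 5, a 2-fold rule or the GC trend removed 0 were lower, and with a pseudocount of 0.1, 2 were. The peptide transporter gene Tap1 had a ratio of 2.53 (2.19 to 2.93) and Casp1 2.49 (1.99 to 3.10). Tap2 had a ratio of 1.57 (1.39 to 1.79) but, with a log2 change of 0.56, was not called. The GTPase gene Irgm1 was at 16.8 RPKM in the Brpf1-null library and 27.0 RPKM in the wild-type library. Of 12 kept B-cell genes tied to Irf4 and Irf8, 10 were lower and 0 higher, with a median of -1.82. Whether these genes depend on Irf4 or Irf8 in LSK cells was not tested, and most of them are general B-lineage genes. Cd79a was at 0.848 RPKM in the Brpf1-null library and 50.6 RPKM in the wild-type library, Vpreb3 at 1.20 RPKM in Brpf1-null and 52.5 RPKM in wild-type cells, and the specification factor gene Ebf1 at 1.14 RPKM in Brpf1-null and 13.4 RPKM in wild-type cells.

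**Figure D4:**
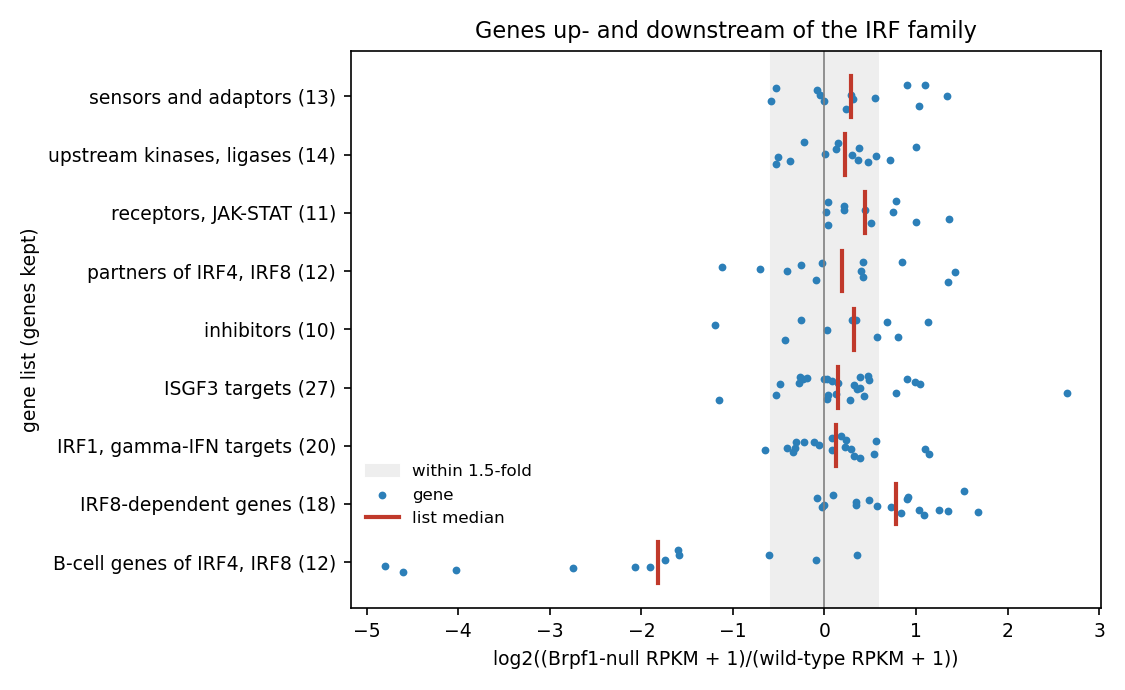
Log2 change of each kept gene (Brpf1-null over wild-type, pseudocount 1) in 9 lists around the IRF family, with the number of kept genes in brackets; points are genes, red lines list medians, and the grey band lies within 1.5-fold. The median was 0.78 for Irf8-dependent genes, 0.15 for ISGF3 targets and -1.82 for B-cell genes of Irf4 and Irf8. Dependence on Irf8 or Irf4 was not tested.

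Markers of other cell types differed beside Irf8, Irf5 and Irf7. Of 8 kept monocyte markers, 6 were higher and 0 lower, and the list of 9 summed to 207 RPKM in the Brpf1-null library and 98.0 RPKM in the wild-type library. Of the 6, Csf1r, Ly86, Ctss and Fcgr1 were already counted in the Irf8-dependent list. Of the 6 conventional dendritic markers counted, Batf3 and Cd209a were higher, Clec9a was listed at 0 in both libraries, and Zbtb46, Xcr1 and Itgax did not pass the filter. Flt3 and Id2 were planned for this list but not counted in it. Their ratios were 1.45 (1.37 to 1.54) and 2.06 (1.94 to 2.20). Of 7 kept plasmacytoid dendritic markers, cells known for high Irf7 and Irf8, 4 were lower and 1, Bst2, higher. Siglech, their defining receptor gene, was at 0.338 RPKM in the Brpf1-null library and 2.59 RPKM in the wild-type library, and Ccr9 at 1.35 RPKM in Brpf1-null and 9.20 RPKM in wild-type cells. Of 7 kept macrophage markers, 4 were lower and 0 higher. All 8 kept B-lineage, all 6 erythroid and all 10 hepatocyte markers were lower. Of 7 neutrophil and granulocyte progenitor markers, 1 was higher and 4 lower. The higher one, Mpo, was at 570 RPKM in the Brpf1-null library and 351 RPKM in the wild-type library. It was named after its values were seen. The lower ones were S100a8, Ngp, S100a9 and Camp. Of 2 kept T and NK cell markers, 1 was higher and 0 lower. The part of these differences in the levels of the IRF genes was not tested, and in pooled cells a change in the share of a cell type and a change in RNA per cell cannot be told apart.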

How the data were processed

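Per the labels' protocols, total RNA of about 10000 sorted LSK cells per sample, pooled from 4 embryos, was sequenced from oligo-dT-primed libraries on Illumina HiSeq instruments, with pair 1 on 2 lanes and pair 2 on 6. Reads were aligned with TopHat to mm9, per the submitters' processing notes, with version, annotation, counter and strand setting not given in the sources used here. Per gene, the authors deposited RPKM (pair 1) and FPKM (pair 2) values, per the file headers, plus wild-type over Brpf1-null as a ratio and as log2, per the file headers; these deposited columns run opposite to the direction used here and were not used. All 20207 symbols matched between the tables and 0 values differed, so they were treated as 1 library per genotype, called RPKM here.

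Changes are differences of log2(RPKM + 1), Brpf1-null minus wild-type, a scale on which changes of low genes come out too small; ratios carry no pseudocount. Genes averaging 1 RPKM or more were kept. The steps between low values gave the library sizes, with lengths of RefSeq-matched GENCODE M21 transcripts (98.1% of symbols matched): 69.2% of 1954 low values of genes with 1 such transcript were whole reads within 0.1, against 29.8% with sizes raised by 5%. Read numbers use the longest such transcript and are approximate. Python 3.11.15 with scipy 1.17.1 was used.

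The design planned a limma test only if the tables of the pairs differed; they did not, so no test was made. The members and lists were chosen with earlier results of these data known. Named genes are the 8 members, Brpf1, in each list up to 4 kept genes whose log2 change was largest in size, and 3 nearest genes for Irf8, Irf7 and Irf5; some genes this rule takes, and a further row of the family, are not reported here. Alternatives were other pseudocounts, filters, scalings, call rules and transcript lengths.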

Additional observations from a re-analysis of the deposited data

How the results depend on the processing

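All 8 members kept the sign of their log2 change under every alternative run: pseudocounts of 0.1 and 5, no filter or a mean of at least 5 RPKM, centring on the median, quantile normalization, removal of the GC trend and, added after the data were seen, ratios without a pseudocount. The alternative transcript lengths were also added after the data were seen. The range was 1.40 to 1.82 for Irf8, 1.25 to 1.82 for Irf5, 0.51 to 0.94 for Irf7, 0.06 to 0.18 for Irf1, -0.29 to -0.05 for Irf3, -0.39 to -0.21 for Irf2, -0.57 to -0.35 for Irf9 and -0.52 to -0.07 for Irf4. The number of members called higher was 3, except 2 with a pseudocount of 5 and with a 2-fold rule, where Irf7 was not called; 0 were called lower throughout. Centring moved the median of all genes from 0.04 to -0.07, and the split of calls from 1323 higher and 884 lower to 961 and 1204. The counts of all genes were 554 higher and 393 lower with a pseudocount of 5, 793 and 483 with the stricter filter, and 388 and 325 with a 2-fold rule; each of these settings admits fewer calls by construction. The medians of 2 lists near 0 changed sign, with -0.02 for targets of Irf1 and gamma-interferon after removal of the GC trend and -0.01 for partners of IRF4 and IRF8 with no filter. The median of the B-cell genes ran between -3.04 (no pseudocount) and -0.95 (pseudocount of 5). Across genes the log2 change followed GC content (Spearman rho = 0.29 over 9258 genes), and removing that trend gave Irf8 1.56, Irf5 1.47 and Irf3 -0.29. With the median length of all transcripts, the counting intervals of Irf1 (lower bound 0.962) and Irf2 (upper bound 1.02) included 1. No paired analysis was possible because the tables of both pairs hold the same values, and for the same reason no replicate could be left out.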
